A study of Arabidopsis thaliana with 13 samples.

Results

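The last 4 arrays of a 13-array time course of vascular cell induction were compared, 66 and 72 h after induction against 54 and 60 h. They were chosen by their sampling time alone and not by any measured value. The plants were Arabidopsis thaliana Col-0, raised for 6 days at 22 °C under continuous light in liquid MS, and their cotyledons were then cultured in induction medium and collected every 6 h from 0 to 72 h. Added to it were 1.25 mg/L 2,4-D, a synthetic auxin, 0.25 mg/L kinetin, a cytokinin, and 10 µM bikinin. Both the earlier group (54 and 60 h) and the later group (66 and 72 h) stayed in it throughout. Each time was measured on 1 array of total RNA, so no time had a replicate. Neighbouring times stood in for replicates (n = 2 arrays per group), and a p-value therefore measures only the spread between these arrays, which includes any change within a pair. The labels do not say how many plants went into each array.

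The culture is known as VISUAL. Bikinin blocks GSK3-like kinases, which releases brassinosteroid signalling, and together with auxin and cytokinin it drives leaf mesophyll cells through a procambium-like state into xylem vessel cells and phloem sieve elements. Xylem cells lay down a secondary wall of cellulose, xylan and lignin and then digest their own contents with vacuolar proteases, so wall synthesis comes before cell death. The comparison asks what still moved at the end of the course and which programmes had levelled off. Because a whole cotyledon was measured, fewer cells of a type and less RNA per cell cannot be told apart.

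All 4 arrays came from the part of the series with 1 common overall level. The deposited array medians were between 5.82 and 5.99 from 30 to 72 h and between 5.15 and 5.35 from 0 to 24 h, so only the 8 arrays from 30 h on entered the fit. Levels below are log2 values, as read from their range, centred on each array's median. A gene was called when limma gave a Benjamini-Hochberg adjusted p under 0.05 over 10743 genes and a log2 difference of at least 1. Among the 4 arrays the 60 h array stood apart at 40 genes, described near the end, and the step counts and falls that rest on it are given with and without it.

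Very little passed the test in the last step. limma called 2 of 10743 genes, both higher at 66 and 72 h (0.0186% called higher), and none lower (0% called lower), while 488 genes were higher and 522 lower at an unadjusted p under 0.05. The log2 difference of 77.8% of genes lay within 0.25 and of 94.8% within 0.5, and 49 genes differed by at least 1. In the same fit the step before, from 42 and 48 h to 54 and 60 h, had 362 called genes (3.37%), of which 316 rose (2.94%) and 46 fell (0.428%), and 420 genes differed by at least 1. The first step, from 30 and 36 h to 42 and 48 h, had 34 called genes (0.316%), 3 higher (0.0279%) and 31 lower (0.289%). Neighbouring steps share arrays, so these counts are set side by side and not tested against each other.

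The call counts of the earlier steps rest on single arrays. Without the 60 h array the middle step had 5 genes called higher and 1 lower and the last step none, with 1152 and 835 genes at an unadjusted p under 0.05 by limma. The middle step still held more genes with a large difference than the last one. Without that array 344 genes differed by at least 1 in the middle step and 98 in the last, and the SD over genes was 0.39 and 0.29, against 0.42 and 0.25 with it. The first step's 34 calls became none without any 1 of the 30, 54, 60, 66 or 72 h arrays, and also with the values as deposited, trimmed-mean centring, no intensity trend or all 13 arrays in the fit. They became 3 higher and 6 lower with quantile normalization and 93 higher and 194 lower without the 42 h array.

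**Figure D1:**
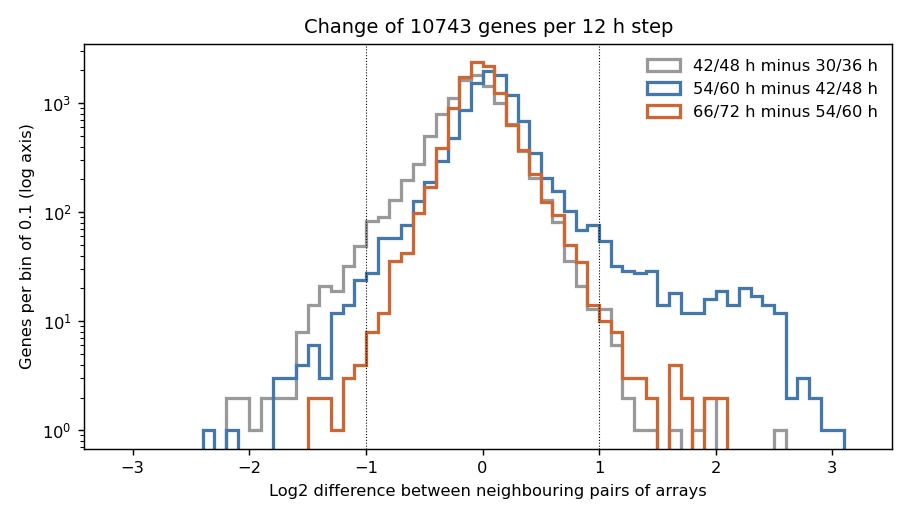
Histograms of the log2 difference of 10743 genes in each of 3 steps of 12 h, with the number of genes per bin of 0.1 on a log axis. Dotted lines mark a difference of 1 in either direction. The last step (orange) is the narrowest, with 49 genes beyond the lines against 420 in the step before (blue) and 182 in the first (grey).

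The distribution of the steps shows the long right shoulder of the middle step and its loss in the last one. The same narrowing was seen in single 6 h intervals. From 48 to 54 h, 220 genes moved by at least 1, of which 198 were higher and 22 lower. The count was 90 from 54 to 60 h, 78 from 60 to 66 h and 40 from 66 to 72 h, the lowest of the 7 intervals after 30 h, with 20 genes in each direction. These counts come from single arrays and have no test.

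Whether a gene's last step differed from the step before was tested directly, as the difference of the 2 steps. No gene was called in either direction (0%), with 913 genes at an unadjusted p under 0.05, of which 681 had the lower value in the last step and 232 the higher. The smallest adjusted p by limma was 0.0907. The standard error of this difference, 0.25 at the median gene, was larger than that of a single step, 0.15. Without the 48 h array the same test called 24 genes higher and 175 lower, so the outcome rests on that array. On these arrays the slowing was visible over the whole set of genes and was not established gene by gene.

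The last step also joins opposite times of day. The 66 and 72 h arrays lie 12 h after the earlier group and 24 h after 42 and 48 h, and over that full day limma called 656 genes (6.11%), 546 higher (5.08%) and 110 lower (1.02%). GI, the one clock gene measured, was at 8.96, 8.78, 8.44 and 8.99 at 54, 60, 66 and 72 h, a log2 difference of -0.15. This difference did not pass the test and was 0.12 without the 66 h array. At 30, 36, 42 and 48 h GI had been at 9.14, 7.78, 7.70 and 8.82, a wider range. Over the full day its difference was 0.46, also not called. The growth light was continuous. Values over the full day are given below beside the last step, with the reminder that both use the 66 and 72 h arrays.

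Of the 2 called genes, the one with a symbol is ALPHA-VPE (AT2G25940), a vacuolar processing enzyme, which is a cysteine protease that matures other vacuolar proteins and has been linked to cell death in plants. Its level was 5.55 at 54 h, 5.78 at 60 h, 7.18 at 66 h and 7.38 at 72 h. Both later arrays stood well above both earlier ones, and most of the gap opened between 60 and 66 h. The mean went from 5.67 ± 0.16 (SD, n = 2) to 7.28 ± 0.14 (SD, n = 2), a 3.06-fold rise (log2 difference 1.61, SE 0.15, limma adjusted p = 0.0180). Earlier it had been lowest, at 4.65 and 4.75, at 42 and 48 h, and over the full day its difference was 2.59.

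The other called gene, AT2G14095, had the larger difference and has no symbol in the annotation used. It read 4.62, 4.77, 6.66 and 6.80 at the 4 times, which is flat within each pair with a jump of nearly the whole difference between 60 and 66 h. The mean rose 4.1-fold, from 4.69 ± 0.10 (SD, n = 2) to 6.73 ± 0.10 (SD, n = 2), with a log2 difference of 2.04 (SE 0.16, limma adjusted p = 0.00881). Both calls needed all 4 arrays. Without any 1 of the 54, 60, 66 or 72 h arrays the adjusted p was between 0.0523 and 0.256 for AT2G14095 and between 0.0615 and 0.416 for ALPHA-VPE, and with all 13 arrays in the fit it was 0.828 for both. With only these 4 arrays in the fit, 2 residual degrees of freedom, limma called 27 genes higher and 2 lower.

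The rest of the vacuolar processing enzymes did not follow. BETA-VPE was at 8.81, 8.80, 8.83 and 8.42, and GAMMA-VPE, the most studied of them in plant cell death, at 10.42, 10.52, 10.41 and 10.26. Their differences of -0.18 and -0.14 did not pass the test. The family was looked up after ALPHA-VPE had been seen, so it carries no test of its own. The xylem cell death genes of the lists drawn up for this comparison were not analysed here.

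Larger changes that missed the test were described by size alone, as genes whose 2 later arrays both lay beyond both earlier ones with a difference of at least 1. There were 37 such rises (0.344% of genes tested) and 9 such falls (0.0838%), against 1837 genes (17.1%) and 2456 genes (22.9%) whose arrays did not overlap upward and downward at any size. The 2 called genes are among the 37. By this rule, which has no test, the next largest difference was that of AT3G49070, at 7.10, 7.96, 9.47 and 9.59 (difference 2.00, adjusted p = 0.0903). Then came AT1G05310 with 1.99, AT4G33810 with 1.92, AT5G07080 with 1.75, AT5G23750 with 1.71, AT4G18425 with 1.65 and AT1G63295 with 1.63. None of these loci has a symbol in the annotation used, and none passed the test.

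The leading 12 without a call also held AT3G47180 and AT5G18980, each with a difference of 1.48. AT4G08160, whose synonym ATXYN3 places it among predicted xylan-cutting enzymes, was at 7.0, 7.59, 8.72 and 9.13. It was higher on each successive array, with a difference of 1.63 (SE 0.34) and an adjusted p of 0.324. AT5G66390, with the synonym PRX72, a secreted peroxidase known for lignin formation in stems, was in this set and was chosen after its values were seen. Its level was 7.24, 7.72, 8.61 and 8.78, a difference of 1.22 (SE 0.25, adjusted p = 0.321). The other 4 peroxidases found by a PRX synonym in the annotation had differences between -0.32 and 0.35. AT5G51890, a peroxidase described below with the lignin genes, carries no such synonym there and had a difference of 0.88.

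**Figure D2:**
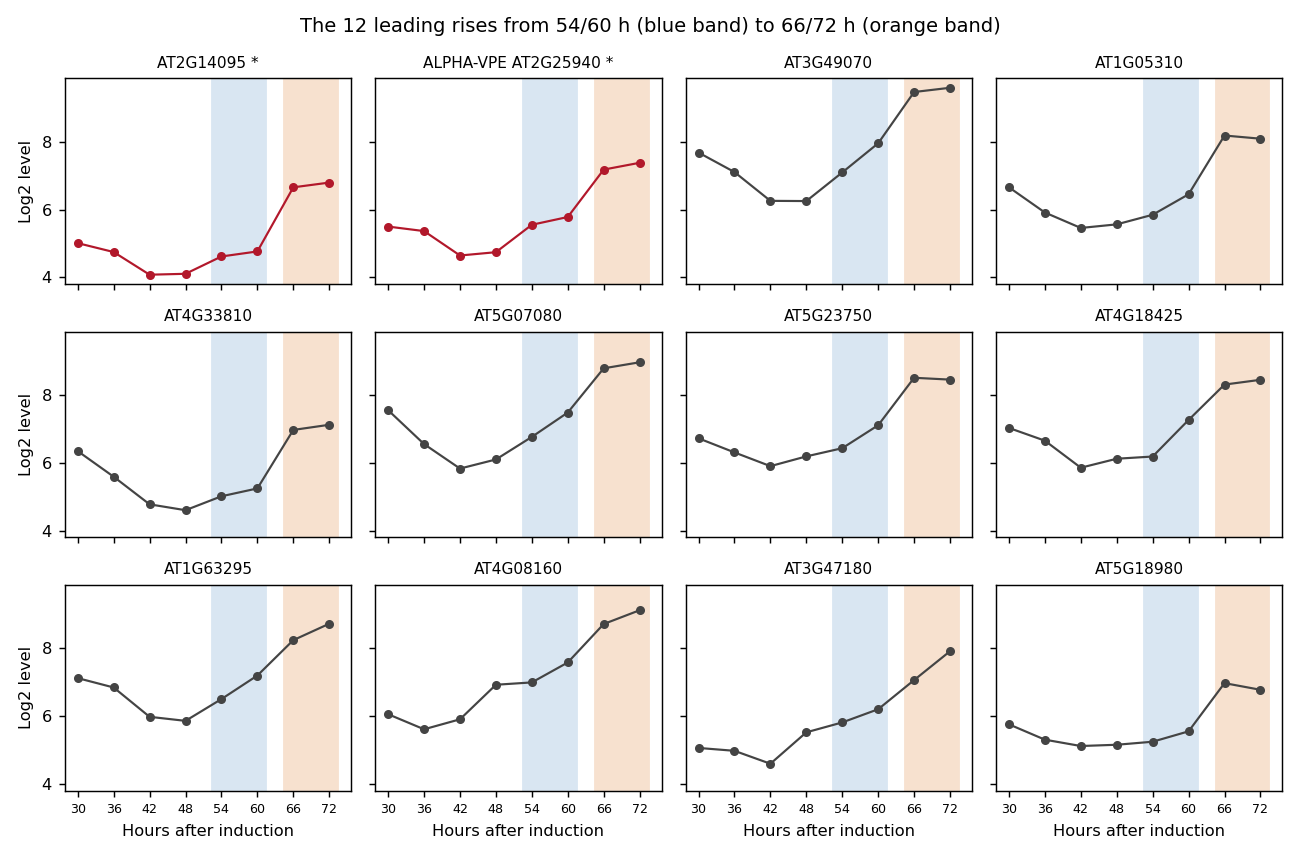
Log2 level of the 12 leading rises on each array from 30 to 72 h, the called genes first and then in order of their difference, with hours after induction on the horizontal axis. The blue band marks the earlier pair and the orange band the later pair. The 2 genes drawn in red with a star were called. In 10 of the 12 panels the lowest pair was 42 and 48 h, and in every panel both points in the orange band lie above both in the blue band.

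Most panels of the 12 leading rises share a shape, a dip at 42 and 48 h and a climb that steepens after 60 h. Among all 37 rises, 24 had their lowest pair at 42 and 48 h, 12 at 30 and 36 h and 1 at 54 and 60 h, and 36 had already been higher at 54 and 60 h than at 42 and 48 h. The median gap of these genes was 0.50 from 48 to 54 h, 0.48 from 54 to 60 h, 0.94 from 60 to 66 h and 0.20 from 66 to 72 h. In 28 of the 37 the interval from 60 to 66 h was the largest of the last 3, and 27 were higher on each successive array from 54 to 72 h. Without the 60 h array 36 of the 37 kept a difference of at least 1, and without the 54 h array 22 did. The members were picked by their last step, so these shapes are a description.

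The measured secondary wall genes of the xylem were still higher at the end, in small steps. They were 7 of the 27 listed, all of them IRX or TBL genes and none a cellulose synthase, so they do not stand for the whole wall programme. All 7 measured members had a difference above 0 and none passed the test. The arrays did not overlap, upward, in 6 of the 7, beside 17.1% over all genes. The median difference was 0.48, against -0.02 over all genes, and 3 had an unadjusted p under 0.05.

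IRX15, needed for normal xylan, was at 5.64, 6.10, 6.29 and 6.93 (difference 0.74, SE 0.28, adjusted p = 0.492). TBL34, which adds acetyl groups to xylan, was at 7.32, 7.12, 7.76 and 8.11 (difference 0.72, SE 0.18, adjusted p = 0.392). The xylan backbone enzyme IRX10 (AT1G27440, GUT2 in the annotation) was at 9.92, 10.25, 10.68 and 10.73 (difference 0.62, SE 0.17, adjusted p = 0.396). In each of these 3 genes both later arrays were above both earlier ones. IRX15-L, TBL33, TBL31 and IRX10L followed with differences of 0.48, 0.46, 0.38 and 0.16, and TBL31 was the member whose arrays overlapped.

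The wall genes had larger median differences in the earlier steps. Their median step was 1.07 from 30 and 36 h to 42 and 48 h, 0.63 in the middle step and 0.48 in the last. In the middle step 5 did not overlap upward, beside 40.4% over all genes. In the first step 1 member was called, and none in the middle one. Over the full day to 66 and 72 h 5 of the 7 were called higher, beside 5.08% over all genes, but 1 without the 72 h array, 2 without 42 h and 3 without 66 h. In the full family of TBL acetyltransferase-like genes the last step had no common direction. Its 18 measured members, 3 of which are wall genes above, had a median of 0.05. Of them 7 did not overlap upward and 5 downward, beside 17.1% and 22.9% over all genes. TBL38, at 0.46, and TBL36, at 0.45, were on the high side, and TBL26, at -0.40, on the low side.

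Both measured lignin genes, 2 of the 19 listed, were higher. AT5G51890, listed as PRX66, a peroxidase tied to vessel lignin, was at 11.64, 11.88, 12.48 and 12.80 (difference 0.88, SE 0.27, adjusted p = 0.410). HCT, an early enzyme of the lignin precursor pathway, was at 9.78, 10.04, 10.41 and 10.58 (difference 0.59, SE 0.16, adjusted p = 0.392). Neither passed the test in the last step, and in both the arrays did not overlap, upward, beside 17.1% over all genes. Their differences in the last step exceeded those in the middle step, 0.45 for PRX66 and 0.33 for HCT, though the change of step was not called for either.

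The xylem regulator measured, 1 of the 22 listed, was AT1G66810, listed as C3H14, a zinc finger protein that activates secondary wall genes. It was at 6.97, 7.34, 7.35 and 8.08, with the 72 h array alone clearly above the rest. The difference of 0.56 (SE 0.24, adjusted p = 0.520) did not pass, while in the middle step it had risen by 1.0 and was called. That call was lost without the 60 h array, where the rise was 0.81 (adjusted p = 0.356), and without 30, 36, 42 or 54 h. The xylem groups are thus 10 measured genes, each with a higher mean at 66 and 72 h and none called.

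**Figure D3:**
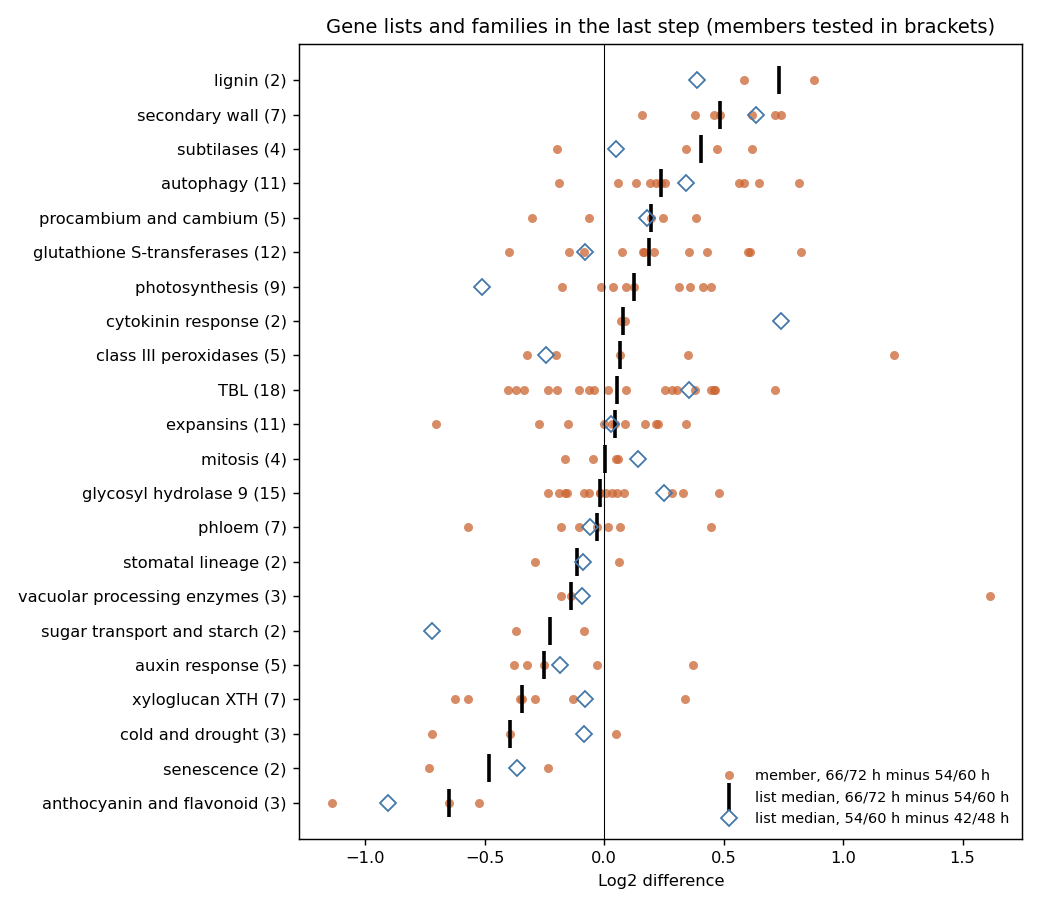
Log2 difference of 66 and 72 h minus 54 and 60 h for each measured member (orange points) of the gene lists and families with at least 2 measured members, the plastid-encoded genes left out, sorted by median (black bars). Blue diamonds give the list's median in the step before. Lignin and secondary wall genes lie at the top, with medians of 0.73 and 0.48, and anthocyanin genes at the bottom with -0.65.

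In the plot of lists and families most medians lie within 0.5 of 0 in the last step. Cytokinin response and photosynthesis are the lists whose blue diamonds lie farthest to one side of their black bars. Of the 22 lists, 18 had at least 1 measured member and 58 genes were tested in all. None of the 58 was called in the last step. The lists for brassinosteroid response, low oxygen and the epidermis had no tested member and were not analysed here.

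Phloem genes showed no common direction. Of 7 measured members 3 were above 0 and 4 below, and the median was -0.03. In 2 the arrays did not overlap upward and in 2 downward, beside 17.1% and 22.9% over all genes. CLE45, a peptide that restrains sieve element formation in the root, was at 6.49, 6.64, 6.86 and 7.17. Its difference of 0.45 did not pass, after a called rise of 1.41 in the middle step. Without the 60 h array that step was 1.33 and not called (adjusted p = 0.218), nor was it without 42, 54, 66 or 72 h. SWEET11, which exports sucrose toward the phloem, was at 8.75, 8.53, 8.60 and 7.54, so its difference of -0.57 came from the 72 h array. OPS, CLE41, CLE44, CLE25 and CLE26 lay between -0.18 and 0.07. CLE41 and CLE44, which encode the peptide that keeps cambium cells dividing and undifferentiated, remained near 10.4 on all 4 arrays.

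Procambium and cambium genes were also mixed. BRL1, a brassinosteroid receptor of vascular cells, was at 7.09, 7.27, 7.38 and 7.75 (difference 0.38). MOL1, a receptor-like kinase that restrains the cambium, was at 6.81, 6.87, 6.46 and 6.62 (difference -0.30). AT5G02460, listed as PEAR2, a Dof transcription factor that promotes procambial division, had a difference of 0.25, PHV one of 0.20 and LHW one of -0.06. None of the 5 passed the test, and the median was 0.20.

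Genes of dividing cells had small differences. The Aurora kinases AUR1, AUR2 and AUR3 and the centromere histone CENH3 had differences of -0.04, 0.06, -0.16 and 0.05. Their median was 0.00, and its sign differed between scalings of the arrays. MCM7, a helicase subunit of DNA replication, was at 9.33, 9.51, 9.26 and 9.29 (difference -0.14). No member of either list passed the test.

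Photosynthesis genes, which mark the mesophyll that the culture starts from, were no longer lower from step to step. Their median step was -0.41 from 30 and 36 h to 42 and 48 h and -0.51 to 54 and 60 h, when all 9 measured members had the lower mean, none of them called. The arrays of 8 did not overlap downward in that step, beside 16.3% over all genes. In the last step the median was 0.13 and 7 of the 9 had a difference above 0. The arrays of 4 did not overlap upward and of none downward, beside 17.1% and 22.9% over all genes. PSBW, a small subunit of photosystem II, was at 9.61, 9.80, 10.01 and 10.04 (difference 0.32).

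RCA, which activates Rubisco, was at 8.46, 8.83, 9.11 and 8.90 (difference 0.36). PRK, the Calvin cycle kinase that regenerates the substrate of Rubisco, was at 6.13, 6.55, 6.95 and 6.63 (difference 0.45), and LHCB4.2, an antenna protein, at 5.13, 5.52, 5.98 and 5.50 (difference 0.41). In these 3 the 66 h array was the highest of the 4, and over the full day their differences were -0.15, -0.0038 and -0.39. None passed any of these tests, and any part of a daily rhythm in them was not tested. The 63 plastid-encoded genes, grouped after values were seen, had a median of -0.05, with 24 not overlapping downward and 1 upward, beside 22.9% and 17.1% over all genes.

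**Figure D4:**
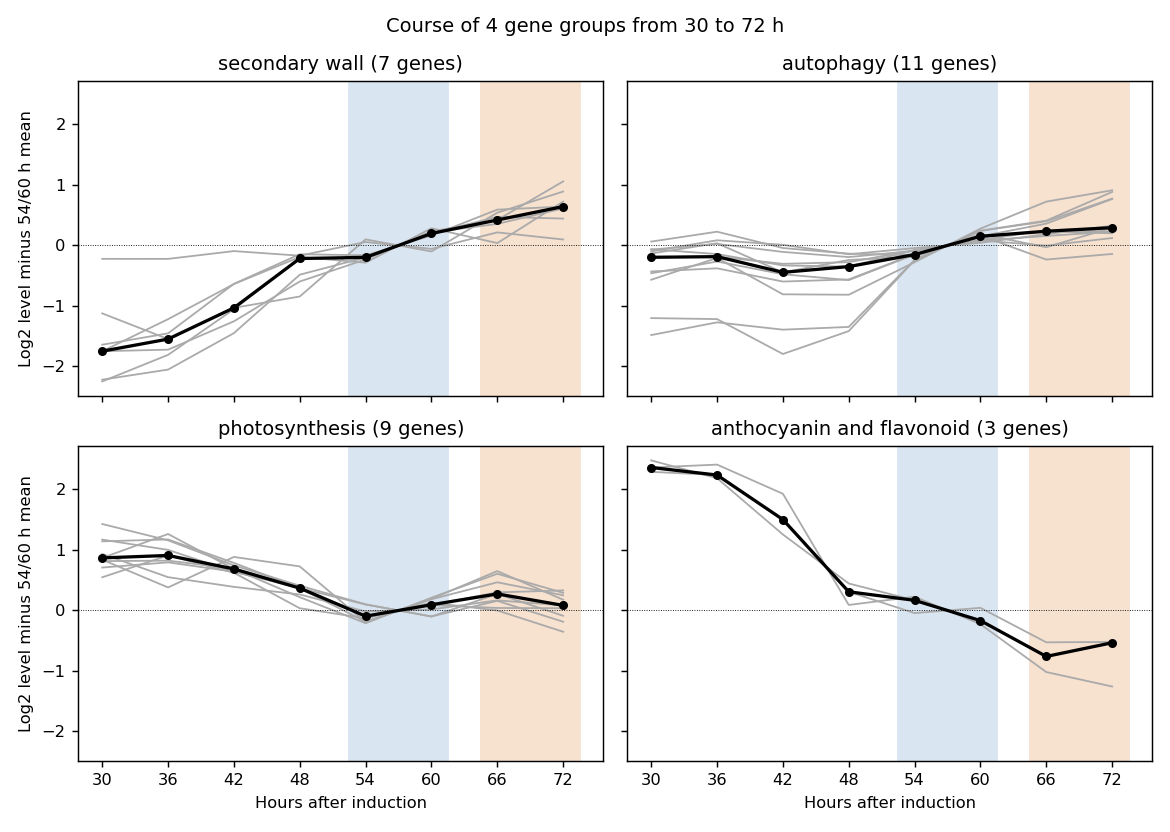
Course of 4 gene groups from 30 to 72 h, each gene drawn in grey as its log2 level minus its own mean of 54 and 60 h, with the median in black. Blue and orange bands mark the earlier and later pairs. In the orange band the 7 secondary wall genes lie above 0, as do most autophagy genes (ATG8G lies below on both arrays), the photosynthesis median lies slightly above 0, and the 3 anthocyanin genes lie below it.

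The courses of the 4 groups differ in when they flatten. Anthocyanin genes were still lower at the end. Their median steps were -1.38, -0.91 and -0.65 from the first to the last, and over the full day all 3 were called lower, beside 1.02% over all genes. That count was 0 without the 72 h array, 1 without 66 h and 2 without 42 h.

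DFR, which makes the colourless precursor of anthocyanins, was at 7.29, 6.83, 6.04 and 5.80, lower at each successive time. Its difference was -1.14 (SE 0.48, adjusted p = 0.518), one of the 9 falls by size. UGT75C1 and UF3GT, which attach sugars to anthocyanins, had differences of -0.65 and -0.52. In all 3 the arrays did not overlap, downward, beside 22.9% over all genes, and none passed the test. The low level of UF3GT, 3.72 and 3.73 on the later arrays, leaves its last step open to the treatment of dim values, since with a floor at the 40th percentile its difference was 0.02. Across the alternatives the difference of UGT75C1 also came close to 0, between -0.81 and -0.07. That of DFR lay between -1.36 and -0.91.

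The 2 measured senescence genes were lower without passing the test. SWEET15, a sugar exporter that rises in ageing leaves, was at 5.07, 5.26, 4.78 and 4.09 (difference -0.73), and SAG101 had a difference of -0.23. Across the alternatives these lay between -1.07 and -0.11 for SWEET15 and between -0.41 and -0.06 for SAG101. In both the arrays did not overlap, downward, beside 22.9% over all genes. For SAG101 this was nearly a tie, with 5.574 at 66 h against 5.579 at 54 h, and only the 72 h array (5.22) was clearly lower. APL3, a subunit of the enzyme that starts starch synthesis, had a difference of -0.37 and the sugar transporter SWEET4 one of -0.08, which was 0.44 without the 54 h array.

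Hormone response genes moved little. The cytokinin response regulator ARR16 was at 9.26, 9.36, 9.43 and 9.37 (difference 0.09) after a called rise of 1.19 in the middle step. Without the 60 h array that step was 1.14 and not called (adjusted p = 0.108), and without 42 h it was 0.89, under the size of 1. ARR15 had a difference of 0.07 in the last step. Of 5 auxin response genes, 4 were below 0. GH3.1, which conjugates auxin to amino acids, was at 10.61, 10.60, 10.33 and 10.12 (difference -0.38), and GH3.5 had -0.32. IAA29, an auxin-induced repressor, went the other way at 8.61, 8.5, 8.80 and 9.05 (difference 0.37). None of the 7 genes passed the test.

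Of the cold and drought genes, COR15A and KIN2 changed sign when 1 array was left out. COR15A was at 7.83 at 54 h and between 6.87 and 6.99 at the other times, so its difference of -0.39 became 0.09 without the 54 h array. COR27, a cold and clock regulated gene, was at 9.01, 8.34, 7.74 and 8.17 (difference -0.72, between -1.05 and -0.39 across the alternatives). At 30, 36, 42 and 48 h COR27 was at 9.65, 8.41, 6.92 and 7.90. Over the full day its difference was 0.55 and not called, and any part of a daily rhythm in it was not tested. KIN2 had a difference of 0.05 with both signs across the alternatives. AT1G36060, listed as WIND3, a wound-induced regulator of dedifferentiation, was at 7.04, 7.24, 7.32 and 7.47 (difference 0.26). SPCH and FAMA, which act early and late in the stomatal lineage, had differences of -0.29 and 0.06, and COB, of primary wall cellulose, one of -0.06. None passed the test.

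Autophagy genes were looked up after ALPHA-VPE and the leading rises had been seen, so their counts are a description without a test. Of 11 measured genes 10 had a difference above 0, with a median of 0.24, and 8 did not overlap upward while none did downward, beside 17.1% and 22.9% over all genes. Among them 6 had an unadjusted p under 0.05 and none was called. All of the 11 but ATG3 and AT5G66930 encode ATG8 proteins, so these counts are mostly those of 1 gene family. The ATG8 proteins are small ubiquitin-like proteins that coat the membranes of forming autophagosomes. ATG8E was at 5.15, 5.71, 6.15 and 6.34 (difference 0.82, SE 0.21, adjusted p = 0.392).

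ATG8H was at 8.89, 9.38, 9.55 and 10.02 (difference 0.65), APG8A (ATG8A) at 7.17, 7.65, 7.81 and 8.18 (difference 0.59) and ATG8B at 7.98, 8.28, 8.49 and 8.89 (difference 0.56). All 4 were higher on each successive array. Over the full day 4 of the 11 autophagy genes were called higher, beside 5.08% over all genes, or 3 without the 72 h array. They were these same 4, by 1.63, 2.25, 1.96 and 1.09. The full day shares the 66 and 72 h arrays with the last step, by which these 4 stood out, so the calls are no separate support. ATG8G was the exception, at -0.19. ATG3, the enzyme that couples ATG8 to lipid, and AT5G66930, with the synonym ATG101, a subunit of the kinase complex that starts autophagy, had differences of 0.06 and 0.22.

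Other enzyme families were also grouped after values were seen, and their counts of non-overlapping genes stand beside the same 17.1% upward and 22.9% downward over all genes. Of 4 subtilases, which are serine proteases, 3 did not overlap upward, SBT3.12 with a difference of 0.62, SBTI1.1 with 0.47 and SBT3.5 with 0.34. Of 12 glutathione S-transferases, which attach glutathione to reactive compounds, 6 did not overlap upward and none downward, led by GSTF3 at 0.82, GSTU18 at 0.61 and GSTF4 at 0.60. The wall-loosening XTH family, enzymes that cut and rejoin xyloglucan, leaned the other way with a median of -0.34. XTH16 was at 4.69, 4.76, 4.2 and 4.01 (difference -0.62) and XTH33 at 8.22, 8.27, 7.76 and 7.60 (difference -0.57, SE 0.12, adjusted p = 0.324).

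In the XTH family 5 of 7 did not overlap downward and XTH29 alone did upward, beside 22.9% and 17.1% over all genes. Expansins, which also loosen walls, had no common direction, with a median of 0.05 over 11 genes and 3 not overlapping each way. EXPB1 was the lowest of them at 7.39, 7.55, 6.95 and 6.58 (difference -0.70). The 15 endoglucanases of glycosyl hydrolase family 9 had a median of -0.02. No member of any of these families passed the test in the last step.

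The 9 falls by size divided into those carried by the 60 h array and those that were not. AT1G54050 was at 4.19, 6.57, 4.11 and 3.74, so its difference of -1.45 came from 1 high array and was -0.26 without it. AT3G56790, AT3G04410, AT5G25450 and AT1G50740 had the same form, with differences of -1.31, -1.18, -1.06 and -1.01. In these 5 the 60 h array was at least 1 above 54, 66 and 72 h, and without it none of their differences reached -1.

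The other 4 falls kept a difference of at most -1 without the 60 h array. AT4G02170 was at 6.37, 6.87, 5.37 and 5.01 (difference -1.43, adjusted p = 0.392). QQS, a gene known only from Arabidopsis thaliana that affects starch and protein content, was at 7.72, 7.63, 7.01 and 5.92 (difference -1.21, adjusted p = 0.392). AT3G53980 was at 6.66, 6.13, 6.06 and 4.51 (difference -1.11), with the 72 h array alone far below the rest. DFR, described above, was the last, and none of the 9 passed the test.

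The 60 h array as a whole held 40 genes (0.372%) that lay at least 1 above both the 54 h and the 66 h array, a pattern picked after values were seen and without a test. At the same threshold the 36 h array, a day earlier, held 29 genes (0.27%), while the 42, 48, 54 and 66 h arrays held between 0 and 6. Among the arrays before 30 h, which have another overall level, the 6 h array held 33 (0.307%). On both the 36 and the 60 h array 18 genes peaked, 45% of the 60 h set and 62.1% of the 36 h set. In 38 of the 40 the 36 h array was above 30 and 42 h by any amount, in some by as little as 0.02. The share of all genes above by any amount was not counted, so only the 18 can be compared with other arrays.

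Of the 40, 3 have a symbol. STZ, a zinc finger protein induced by many stresses, was at 4.59, 6.98, 4.60 and 4.28, and at 7.40 at 36 h. PUB23, a ubiquitin ligase of the defence and drought response, was at 6.88, 7.93, 6.78 and 6.77, and at 8.92 at 36 h. Hop3, a co-chaperone of heat stress, was at 5.27, 6.56, 5.50 and 5.41, with no peak at 36 h. The median last step of the 40 genes was -0.70, but their median at 66 and 72 h lay 0.04 above the 54 h array. What set the 36 and 60 h arrays apart was not tested.

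**Figure D5:**
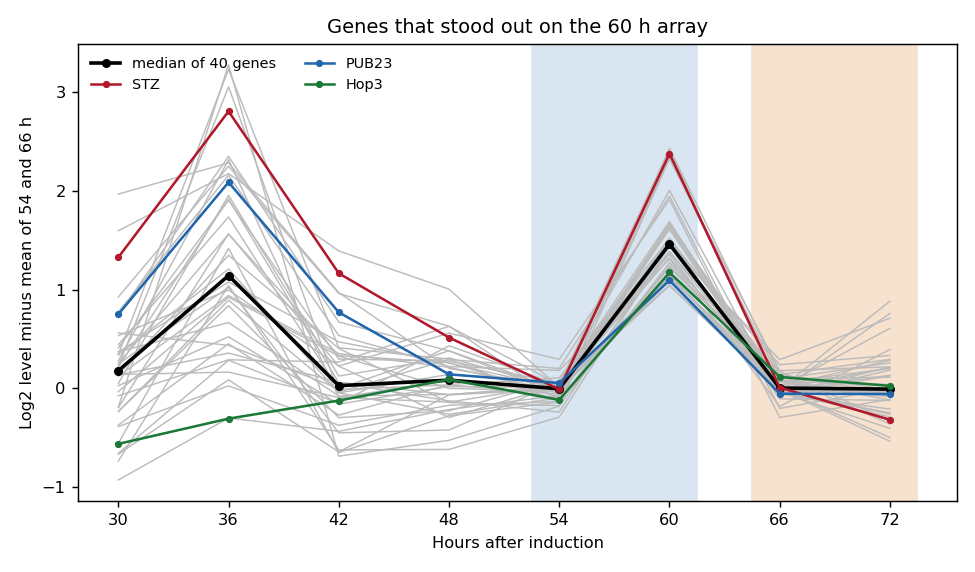
Log2 level of the 40 genes that stood out on the 60 h array, each minus its mean of 54 and 66 h, on the arrays from 30 to 72 h, with the median in black and the 3 genes with a symbol in colour. Bands mark the earlier (blue) and later (orange) pairs. The lines lie near 0 at 54 and 66 h because of how they were picked and drawn. At 72 h most lie near 0 too, but a few do not, such as AT5G07580 (4.79 at 72 h against 4.95 at 60 h). In 18 of the 40, STZ and PUB23 among them, the 36 h array also peaked by at least 1, while Hop3 had no peak there.

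Genes called in the first step were followed into the last one. The log2 differences of these steps share no array, but the calls are not independent of the later arrays. A gene's spread was estimated over all arrays in the fit, the later ones included. The calls also hung on single arrays, as given above. The 3 genes called higher from 30 and 36 h to 42 and 48 h, among them IRX10 and AGL53, all had non-overlapping higher arrays in the last step, with differences between 0.31 and 0.62. Of the 31 genes called lower in the first step, 24 had a last step below 0, with a median of -0.22 and a range from -0.71 to 0.30. Their arrays did not overlap downward in 17 and upward in 3, beside 22.9% and 17.1% over all genes. Picking genes by these calls favours a small spread within pairs, and so arrays that do not overlap in either direction. The counts of non-overlapping genes, higher or lower, are therefore a description and not an independent follow-up. The median first step of these 31, by which they were picked, had been -1.21.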

How the data were processed

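Total RNA of each of the 13 samples was turned into biotin-labelled cRNA by Affymetrix one-cycle chemistry, per the labels. The deposited values were read as log2 from their range. GCOS appears in the submitters' processing notes, but neither its version nor its role is stated. For the log base, background correction, probe set summary and normalization the sources used here give nothing. The files hold no detection calls, so a low level could not be told from absence, and the number of arrays limits the precision. Of 38408 probe sets, 16722 had 1 gene, 759 several and 20927 none, and 16574 of the 16722 matched the TAIR10.1 RefSeq annotation. Probe sets of several or no genes were not named.

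Each array was centred on its median, the dimmest 30% of probe sets by mean were dropped, and the brightest probe set stood for each gene, leaving 10743 genes (1340 named by a symbol). The 8 arrays of 30 to 72 h were fitted with limma 3.58.1 (R 4.3.3), with 1 mean for each pair of neighbouring times, 4 residual degrees of freedom and moderation by eBayes with a trend on intensity. Replicate numbers were given in time order and only name arrays. Named genes were the 12 largest rises and falls and the 6 largest with a symbol, called first and then by size, and up to 3 members of each list. Any other named gene was chosen after its values were seen. Of 340 genes in 22 lists, 58 were tested. The members and lists were chosen with earlier results of these data known.

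Both tests were tried on simulated data in which 200 of 10743 genes changed by a known amount. Each simulated array had independent normal noise around 1 mean per gene. No gene changed within a pair, and no effect was shared by the genes of an array. For log2 changes of 1, 2 and 3 the last step recovered 48, 100 and 100% with 3, 3 and 0 false calls. The difference of steps recovered 15.5, 92 and 99.5% with 1, 10 and 9. These shares hold for such noise alone. In the real data AT3G49070, with a difference of 2.00, was not called. Alternatives were other scalings, filters, floors, probe set rules, eBayes settings, array weights and sets of arrays, a straight line in time, and leaving out each array. Testing all probe sets, leaving out arrays in the size rule, and every alternative for the 2 earlier steps were chosen after seeing the data. Plots used matplotlib 3.10.9 under Python 3.11.15.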

Additional observations from a re-analysis of the deposited data

How the results depend on the processing

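The 2 genes called higher in the last step became 0 with the lowest 50% of probe sets left out (neither gene was then tested), 0 with all 13 arrays in the fit, 1 with a straight line in time (another gene) and 0 with all probe sets tested. With only the 4 arrays of 54 to 72 h, 27 were called higher and 2 lower. Leaving out 1 array gave 0 to 4 higher, 0 without any of the 54, 60, 66 or 72 h arrays and 4 without 30 or 36 h, and 0 lower each time. The difference of steps called 1 gene higher with all probe sets tested. Leaving out 1 array gave 0 to 24 higher and 0 to 175 lower, both upper values without the 48 h array, and 1 lower without 54 h. Over the full day, the 546 higher and 110 lower became 1124 and 473 with no minimum difference, 930 and 202 with all probe sets tested, and 72 lower with all 13 arrays. Leaving out 1 array gave 333 to 652 higher and 20 to 227 lower, with 333 and 20 without 72 h, 34 lower without 42 h and 227 lower without 48 h. By size alone, the 37 rises became 23 with the lowest 50% of probe sets left out, and leaving out 1 of the 4 arrays gave 29 to 81 rises (81 without 60 h, 73 without 66 h) and 13 to 49 falls (49 without 54 h, 40 without 66 h, 17 without 60 h). In the middle step the 316 higher and 46 lower became 527 and 105 with no minimum difference, 23 lower with all 13 arrays and 30 lower with the lowest 50% of probe sets left out, and leaving out 1 array gave 5 to 434 higher and 1 to 142 lower (5 and 1 without 60 h, 199 and 10 without 42 h, 142 lower without 48 h). The first step's 3 higher and 31 lower became 0 and 0 with values as deposited, with trimmed-mean centring, with no intensity trend and with all 13 arrays, 1 and 1 with all probe sets tested, 6 lower with quantile normalization, and 6 higher and 73 lower with no minimum difference. It had 6 higher with the lowest 50% left out, 6 with a floor at the 20th percentile, 6 with array weights, 5 with robust eBayes and 2 with a floor at the 40th percentile. Leaving out 1 array gave 0 to 93 higher and 0 to 194 lower, the upper values without 42 h, with 32 and 128 without 36 h and at most 1 gene called without any other array. Both sets of alternatives for the earlier steps were added after seeing the data. Other alternatives kept these counts within 1.5 times, and the cause of each shift was not tested.

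Of 1340 values for 59 named genes, 1299 kept their direction and side of the threshold, 17 passed it newly, 12 lost it and 12 changed sign. AT2G14095 and ALPHA-VPE lost their calls with all 13 arrays, with the straight line and without each of the 4 arrays. The sign changes were small values. With a floor at the 40th percentile SPCH and UF3GT were at 0.02, and with the straight line KIN2 was at -0.11. Leaving out 1 array gave ranges of -0.0039 to 0.10 for CENH3, -0.43 to 0.12 for GI, -0.01 to 0.15 for ARR15, -0.87 to 0.09 for COR15A, -0.08 to 0.20 for FAMA, -0.61 to 0.44 for SWEET4 and -0.41 to 0.51 for KIN2. Across 4 scalings the sign of the list median differed for mitosis alone. No paired analysis was possible because the replicate numbers only name neighbouring times and the labels give none.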
